A study of Homo sapiens with 4 samples.

Results

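The 7 genes of the human cyclin-dependent kinase (CDK) inhibitors were examined in chromatin accessibility data from pancreatic progenitors (PPs): CDKN1A, CDKN1B, CDKN1C, CDKN2A, CDKN2B, CDKN2C and CDKN2D. A member region was any merged peak region that overlapped one of these gene bodies (GENCODE release 44, hg38) or the 20 kb on either side of it. By this rule 31 of the 164301 merged regions were members. The PPs were derived from MEL1 (named MEL1 INS GFP/W in the study's methods, with a GFP reporter at 1 allele of INS), an established human embryonic stem cell line, and were kept in EF6 medium, which is DMEM with B27, EGF (50 ng/ml), bFGF (10 ng/ml) and 10 μM of the TGFβ inhibitor 616452. Both groups shared the line and this medium. The control group received DMSO and the other group received 1 μM I-BET151, an inhibitor of the BET bromodomain proteins that read acetylated histones, for 7 days. ATAC-seq, in which a transposase cuts open chromatin and tags it for sequencing, was done on 50000 cells per library, with 2 libraries per group from this 1 cell line.

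CDK inhibitors hold back the kinases that drive cells from the G1 phase into DNA synthesis. The CIP/KIP family (CDKN1A encoding p21, CDKN1B encoding p27 and CDKN1C encoding p57) binds complexes of CDKs with several cyclins. The INK4 family (CDKN2A encoding p16, CDKN2B encoding p15, CDKN2C encoding p18 and CDKN2D encoding p19) binds CDK4 and CDK6 and keeps them from cyclin D. CDKN2A also encodes ARF, which is read from a first exon of its own and restrains MDM2, the ubiquitin ligase of p53. CDKN1A is a known p53 target, and CDKN1C is an imprinted gene that marks cells leaving the cell cycle in the developing pancreas.

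The deposited lists held between 38295 peaks (DMSO replicate 2) and 111324 peaks (I-BET151 replicate 2). The genome-wide background of each list corresponded to 38.7 and 36.6 M reads with DMSO and to 12.5 and 16.0 M reads with I-BET151. Fold enrichment is the pileup at the summit over the local background, after 1 is added to each. For a given ratio, the added 1 lowers it more where the background is small. In reads, the genome-wide background of the I-BET151 lists was 0.923 (replicate 1) and 1.517 (replicate 2). That of the DMSO lists was higher, at 2.865 (replicate 1) and 3.159 (replicate 2). Fold enrichment thus depends on depth. Regions were therefore also compared by the percentile of their fold enrichment within their own list. Percentiles depend in turn on the length of the list, so equal numbers of peaks were taken as an alternative. Minimum peak widths differed, at 200 and 233 bp with DMSO and at 200 and 256 bp with I-BET151. Of 8 promoters of pancreatic progenitor markers, 7 and 6 were called with DMSO and 8 and 8 with I-BET151; the PDX1 promoter was not called in either DMSO list. No promoter of the 2 pluripotency, 3 endocrine or 2 liver markers was called in any list. Of 3 mesenchymal markers, COL1A1 was called in all 4 lists, and COL1A2 and PDGFRB were called only in the I-BET151 lists. Whether this difference played a part in the results at the CDK inhibitor genes was not tested.

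Sequences are shown for the 2 neighbouring CDKN1A regions whose percentiles within the lists went different ways. Also shown are the CDKN2B promoter, which had the highest mean percentile of the shared members with DMSO, and the CDKN2A region that moved up in rank. The last is the region with the highest fold enrichment of the CDKN1B locus, which was called only with I-BET151. Capitals mark exact matches, on either strand, to any of the motifs searched (listed with their frequencies further on). Promoters are the 250 bases before the start site from RefSeq (GRCh38.p14), and the other windows are hg38 sequence around the summit.
CDKN1A, upstream region, chr6:36676291-36676459, plus strand, up to the first exon of transcript CDKN1A-208: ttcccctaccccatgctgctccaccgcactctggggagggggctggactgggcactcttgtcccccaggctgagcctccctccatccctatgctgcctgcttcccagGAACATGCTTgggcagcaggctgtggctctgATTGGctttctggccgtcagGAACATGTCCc
CDKN1A promoter, chr6:36678464-36678713, plus strand: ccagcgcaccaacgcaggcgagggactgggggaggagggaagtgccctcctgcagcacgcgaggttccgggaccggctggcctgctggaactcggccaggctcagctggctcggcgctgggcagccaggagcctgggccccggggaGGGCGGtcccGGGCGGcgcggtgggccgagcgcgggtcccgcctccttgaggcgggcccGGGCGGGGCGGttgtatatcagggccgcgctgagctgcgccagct
CDKN2B promoter, chr9:22009306-22009555, minus strand: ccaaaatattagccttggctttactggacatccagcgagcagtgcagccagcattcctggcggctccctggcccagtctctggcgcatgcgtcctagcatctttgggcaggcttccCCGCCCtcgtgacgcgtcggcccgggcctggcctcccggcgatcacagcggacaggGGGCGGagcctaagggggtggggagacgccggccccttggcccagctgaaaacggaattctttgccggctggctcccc
CDKN2A, region beyond the 3′ end, chr9:21965601-21965801, plus strand: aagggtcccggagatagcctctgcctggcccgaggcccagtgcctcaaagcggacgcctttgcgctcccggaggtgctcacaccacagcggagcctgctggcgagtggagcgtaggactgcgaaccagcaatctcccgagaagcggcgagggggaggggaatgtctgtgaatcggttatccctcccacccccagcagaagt
CDKN1B, region called only with I-BET151, chr12:12704682-12704882, plus strand: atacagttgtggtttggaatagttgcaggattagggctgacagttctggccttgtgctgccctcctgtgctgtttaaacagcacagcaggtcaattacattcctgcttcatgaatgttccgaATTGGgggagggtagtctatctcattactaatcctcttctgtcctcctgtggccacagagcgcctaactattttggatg
The capitals in the CDKN1A upstream window are 2 decamers of the p53 motif and 1 CCAAT box, those in the CDKN1A and CDKN2B promoters are GGGCGG boxes, and the one in the CDKN1B window is a CCAAT box. No motif of the list was found in the CDKN2A window. RefSeq promoters were found for 6 of the 7 genes, in 9 windows, and none was printed for CDKN1C.

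The first question was which regions at these loci were open in each condition. Of the 31 member regions, 15 were called in all 4 lists (shared), 7 in both I-BET151 lists and neither DMSO list (gained) and 0 in both DMSO lists and neither I-BET151 list (lost). The remaining 9 had another combination, among them 4 called in I-BET151 replicate 2 alone and 1 in DMSO replicate 1 alone. Gained regions were 22.6% of the members and 17.0% of all merged regions, and lost regions were 2.37% of all merged regions. Shared regions were 48.4% of the members and 15.6% of all merged regions; among the 110687 regions within 20 kb of any protein-coding gene, 16.3% were gained and 18.3% shared. The lists called 20 and 15 member regions with DMSO (64.5% and 48.4%) and 25 and 29 with I-BET151 (80.6% and 93.5%). Of all merged regions they called 47.9% and 22.9% with DMSO and 49.2% and 67.7% with I-BET151. A region that is gained by this rule may have been open in the DMSO cells below the calling threshold of those lists, where the weakest called peak had 10 or 11 reads. In bulk libraries, more cells with an open region and a more open region in each cell cannot be told apart.

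The gained regions lay at 4 of the 7 genes: 2 each at CDKN1B, CDKN1C and CDKN2D and 1 at CDKN2C. The CIP/KIP windows held 17 regions, of which 4 were gained, 6 shared and 7 other. The INK4 windows held 14 regions, of which 3 were gained, 9 shared and 2 other. All 4 regions of the CDKN2A window, 2 of which also fall in the CDKN2B window, were shared. CDKN1A had 7 regions with 0 gained, 2 shared and 5 other. With equal numbers of peaks taken from each list, the gained count was 2 of 20 member regions (10.0%, against 9.69% of all regions), and within 5 kb of the gene bodies it was 2 of 21 (9.52%, against 17.0%). Without I-BET151 replicate 1 the gained share was 35.5% of the members and 39.3% of all regions, and without I-BET151 replicate 2 it was 22.6% and 27.0%, so the members' share was above that of all regions only under some settings.

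**Figure D1:**
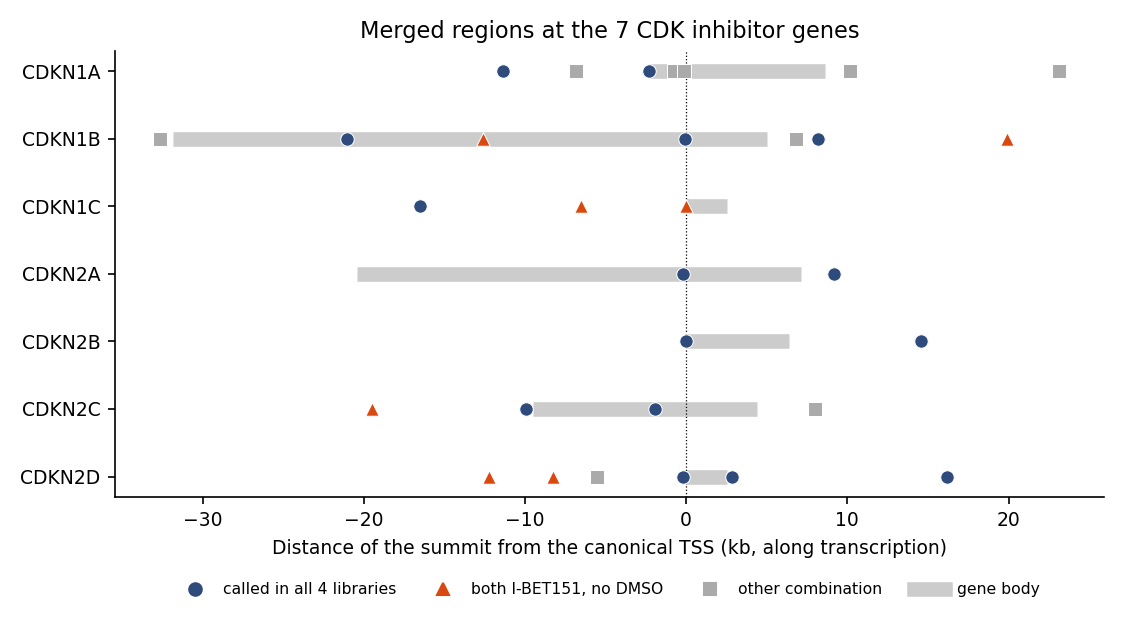
Summits of the 31 member regions by distance from the canonical transcription start site (kb, negative upstream), 1 row per gene, with the call in each symbol and the gene body in grey. The 7 gained regions lie at CDKN1B, CDKN1C, CDKN2C and CDKN2D, and the region drawn 14.5 kb into the CDKN2B row is the shared promoter region of ARF.

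The second question was whether the promoters differed between DMSO and I-BET151 treatment. The promoter of CDKN1A stood at percentiles 21.5 and 0 (not called) with DMSO and 70.8 and 57.5 with I-BET151, and that of CDKN1C was not called with DMSO and stood at 24.2 and 11.1 with I-BET151. The CDKN2D promoter was also higher in both I-BET151 lists, at 91.4 and 88.6 against 81.9 and 75.0. The promoters of CDKN2B and CDKN2C were lower in both I-BET151 lists. For CDKN1B and CDKN2A the groups overlapped.

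With promoters that were not called set to percentile 0, 3 of the 7 were higher without overlap, against 45.3% of the 14773 protein-coding promoters with a region, and 2 were lower without overlap, against 11.7%. The CDKN1C promoter was the 1 gained promoter of the 7, while 10.3% of all those promoters were gained. The difference of the mean percentiles (I-BET151 minus DMSO) was 53.4 for CDKN1A, 15.4 for CDKN1B, 17.7 for CDKN1C, 5.82 for CDKN2A, −10.8 for CDKN2B, −10.1 for CDKN2C and 11.5 for CDKN2D. Its median was 11.5 over the 7 promoters and 6.64 over all promoters, and 5 of 7 were above 0, against 72.0% of all. With 2 libraries per group the two-sided exact permutation test could not go below p = 0.33, which it gave for the 5 promoters without overlap. The median turned to −13.1 with equal numbers of peaks, where 6 promoters remained, to −6.54 when percentiles were taken among shared regions, which covers the 5 shared promoters, and to −2.76 without DMSO replicate 2. With equal numbers of peaks the difference was 17.6 for CDKN1A, −13.0 for CDKN1B, −13.2 for CDKN2A, −36.3 for CDKN2B, −31.9 for CDKN2C and 5.78 for CDKN2D. Among shared regions it was 1.35 for CDKN1B, −6.54 for CDKN2A, −38.3 for CDKN2B and −32.5 for CDKN2C. The promoters of CDKN1B and CDKN2A, whose groups overlapped, thus changed sign under some of these settings. By −log10 p it was 45.5 for CDKN1C, 11.0 for CDKN2A, −0.725 for CDKN2B, −2.09 for CDKN2C and 6.32 for CDKN2D. Without DMSO replicate 1 it was 35.7 for CDKN1B, 14.4 for CDKN2A and −6.69 for CDKN2B, and without DMSO replicate 2 it was −4.81 for CDKN1B and −2.76 for CDKN2A. Without I-BET151 replicate 1 it was 11.1 for CDKN1C, 3.49 for CDKN2A and −6.03 for CDKN2C. The promoters of CDKN1A and CDKN2D kept a positive difference, and those of CDKN2B and CDKN2C a negative one, under each of these alternatives that gave a value. The CDKN1C difference could not turn negative, because its DMSO percentiles were set to 0. The sign for CDKN1A was fixed in the same way where no DMSO list that was used called it, as without DMSO replicate 1. The labels do not say that the libraries came from separate cultures, so p-values measure only the spread between these samples, which may be technical.

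**Figure D2:**
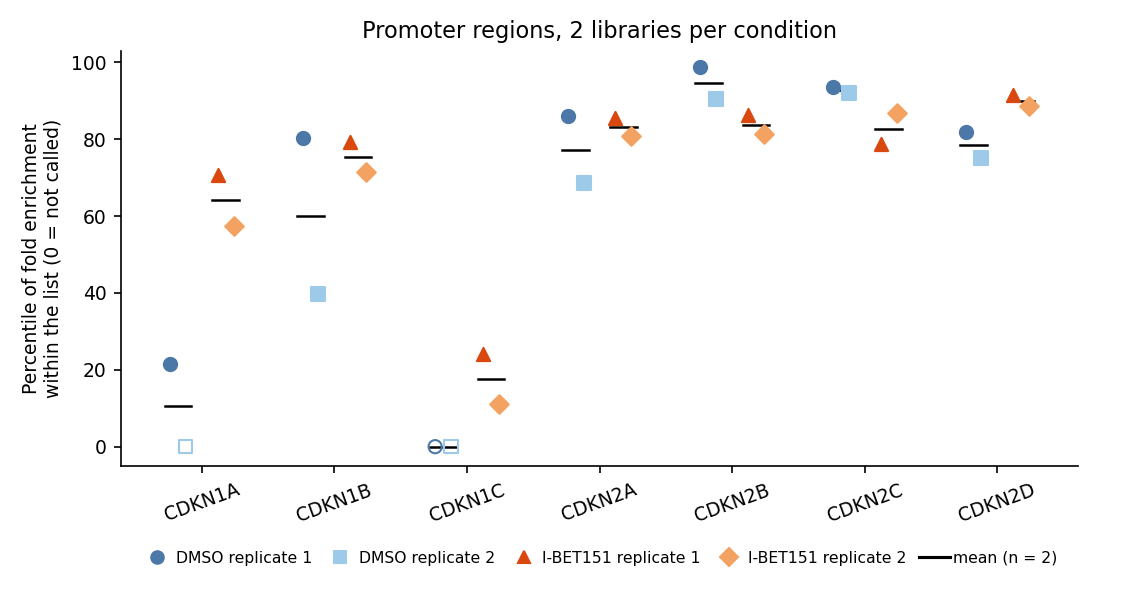
Percentile of fold enrichment within each list (y axis) for the promoter region of each gene, 4 libraries per gene, with open symbols at 0 for libraries that did not call the region and bars for the mean of 2 libraries. CDKN1A, CDKN1C and CDKN2D are higher in both I-BET151 libraries, and CDKN2B and CDKN2C are lower.

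At CDKN1A, the gene of p21, the promoter region (chr6:36678432-36678975) has its summit 110 bp before the canonical start site and 45 bp from the start of DINOL, a noncoding RNA transcribed the other way. Its fold enrichment was 3.27 in DMSO replicate 1, not called in DMSO replicate 2, and 7.17 and 6.69 with I-BET151, from pileups of 27, 41 and 67 reads. Both I-BET151 values were above the only DMSO value. Because DMSO replicate 2 did not call it, this region was not in the test of rank shifts.

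The upstream region of CDKN1A (chr6:36676231-36676697) has its summit 2.3 kb before the canonical start site and 69 bp before the alternative transcript CDKN1A-208; its window holds the p53 decamers printed above. It had fold enrichments of 4.36 and 3.82 with DMSO and 3.19 and 4.22 with I-BET151, which overlapped. Its percentiles were 65.7 and 41.6 with DMSO and 1.06 and 18.5 with I-BET151, lower in both I-BET151 lists. It was the only shared member whose mean log2 fold enrichment was lower with I-BET151 (−0.15), while the median over all shared regions was 0.83. Its rank shift, the difference of normal scores of the within-list ranks, was −2.06 ± 0.39 (SE, 2 against 2 libraries; limma adjusted p = 0.0132). The call was lost without DMSO replicate 1 (adjusted p = 0.0781) and without I-BET151 replicate 1 (adjusted p = 0.0502), and with ranks by −log10 p (limma adjusted p = 0.0966).

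The pileup and the background of this region moved in the same direction. It had 36 and 30 reads at the summit with DMSO and 17 and 40 with I-BET151, which is 0.931, 0.820, 1.36 and 2.50 reads per M reads. Its local background stood 2.61 and 2.25 times above the genome-wide background with DMSO and 5.03 and 5.75 times above it with I-BET151. At the CDKN1A promoter, where fold enrichment was higher with I-BET151, this ratio was 2.64 in DMSO replicate 1 and 5.27 and 6.04 with I-BET151. The ratio with I-BET151 was thus similar at the 2 regions. Over all shared regions the median of that ratio was 1.60 and 1.53 with DMSO and 2.41 and 2.99 with I-BET151. The scaled pileup thus rose by 1.08 on the log2 scale without centring, whereas the shift shared by all regions was 1.57 between the libraries numbered 1 and 2.25 between those numbered 2, and relative to each library's median the region was lower by −0.85 ± 0.21 (SE; limma adjusted p = 0.0494).

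**Figure D3:**
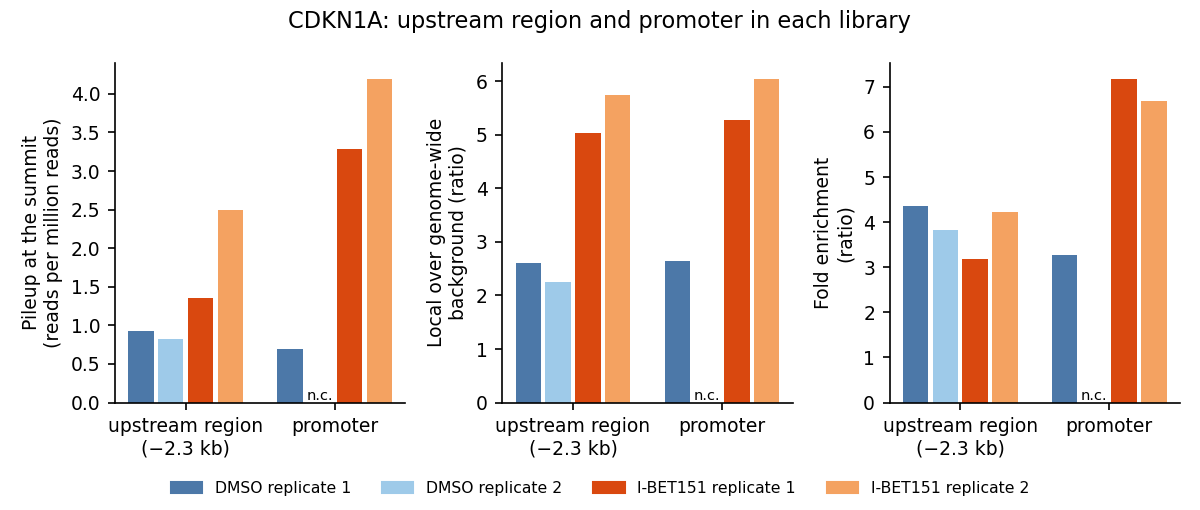
Pileup per M reads, local over genome-wide background and fold enrichment (y axes, left to right) at the CDKN1A upstream region and the CDKN1A promoter in each of the 4 libraries, 1 bar per library, with n.c. where a region was not called. With I-BET151 the background ratio was 5.03 and 5.75 at the upstream region and 5.27 and 6.04 at the promoter. Fold enrichment was 3.19 and 4.22 at the upstream region and 7.17 and 6.69 at the promoter.

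Of the other 5 regions of the CDKN1A window, the one 11.4 kb upstream had the highest single fold enrichment of the locus, in I-BET151 replicate 2. Its fold enrichments were 4.32 and 2.99 with DMSO and 5.56 and 9.04 with I-BET151, and its percentiles overlapped (64.8 and 10.8 against 50.2 and 78.5). The remaining 4 were called in 1 or 2 lists, with fold enrichments from 3.12 to 4.52, and 3 of them were called in I-BET151 replicate 2 alone. One of these lay in DINOL exon 1 and one in RAB44 intron 1.

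At CDKN1B, the gene of p27, the promoter region (chr12:12716900-12717676) was shared. Its fold enrichments were 5.09 and 3.75 with DMSO and 8.22 and 8.07 with I-BET151, while its percentiles of 80.2 and 39.6 against 79.2 and 71.5 overlapped. Its rank shift was 0.04 ± 0.41 (SE; limma adjusted p = 0.965). Fold enrichment thus stood higher in both I-BET151 lists and the place in the ranking did not separate the groups.

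The 2 gained regions of CDKN1B lay on either side of it. The first (chr12:12703832-12705025), 12.6 kb upstream in introns of longer CDKN1B transcripts with no defined coding sequence, had fold enrichments of 9.35 and 8.70 with I-BET151, at percentiles 85.5 and 76.1 and with pileups of 19 and 32 reads. It had the highest fold enrichment of the locus, while the CDKN1B promoter had more reads at its summit with I-BET151 (35 and 63), and neither DMSO list called it. The second (chr12:12737035-12737620), 19.9 kb downstream, had fold enrichments of 7.39 and 6.99 with I-BET151. The 2 other shared regions of the window lay 120 bp from the start of GPR19, a G protein-coupled receptor gene, and 361 bp from that of APOLD1. Their rank shifts were −0.21 and −0.32, neither past the threshold (limma adjusted p = 0.765 and 0.650).

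At CDKN1C, the gene of p57, all 3 regions lay at or before the start site. The promoter region (chr11:2885298-2886101) was gained, with fold enrichments of 4.45 and 3.77 and pileups of 20 and 29 reads in the I-BET151 lists. Both values lay low in their lists, at percentiles 24.2 and 11.1. A second gained region (chr11:2892012-2892852), 6.5 kb upstream in SLC22A18AS intron 1, had fold enrichments of 4.84 and 5.03. The third region (chr11:2901748-2903457) lay 6 bp from the start of SLC22A18, an organic cation transporter gene of the same imprinted cluster, and was shared. It had fold enrichments of 3.87 and 3.21 with DMSO and 7.41 and 8.23 with I-BET151, and its percentiles were higher in both I-BET151 lists (73.2 and 72.7 against 48.2 and 19.1). Its rank shift of 0.71 ± 0.38 (SE) did not pass the threshold (limma adjusted p = 0.266).

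The neighbouring genes CDKN2A and CDKN2B share a locus on chromosome 9. The p16 promoter (chr9:21974572-21975682) had fold enrichments of 5.62 and 4.84 with DMSO and 9.34 and 9.40 with I-BET151. Its percentiles of 85.9 and 68.7 against 85.5 and 80.8 overlapped, and its rank shift was −0.16 ± 0.38 (SE; limma adjusted p = 0.827). The ARF promoter (chr9:21993757-21996204), whose summit lies 18 bp from the start of the antisense RNA CDKN2B-AS1, had fold enrichments of 3.63 and 3.08 with DMSO and 7.60 and 6.56 with I-BET151. Its percentiles were higher in both I-BET151 lists (74.7 and 56.3 against 40.3 and 13.7), and its rank shift of 0.65 ± 0.42 (SE) did not pass the threshold (limma adjusted p = 0.348).

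The region beyond the 3′ end of CDKN2A (chr9:21965343-21965975) was the only member that moved up in rank past the threshold. It lies 9.2 kb past the p16 start site and 1.2 kb before the start of the noncoding RNA CDKN2A-DT. It had fold enrichments of 3.15 and 3.17 with DMSO and 10.2 and 8.20 with I-BET151, from pileups of 15 and 15 against 32 and 30 reads. Its percentiles rose from 16.6 and 17.6 to 89.3 and 72.5, with no overlap. The rank shift was 1.52 ± 0.43 (SE; limma adjusted p = 0.0489), just inside the threshold. The call was lost without DMSO replicate 1 (adjusted p = 0.314), without DMSO replicate 2 (adjusted p = 0.139), without I-BET151 replicate 1 (adjusted p = 0.146), with ranks by −log10 p (adjusted p = 0.142) and with centred scaled pileup (limma adjusted p = 0.329).

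CDKN2B, the gene of p15, had the promoter (chr9:22008691-22009717) with the highest mean percentile of the 7 with DMSO, 94.6 ± 5.86 (SD, n = 2), which did not differ from the 92.8 ± 0.985 of CDKN2C beyond its spread. Its fold enrichments were 9.50 and 7.01 with DMSO and 9.49 and 9.50 with I-BET151. Its percentiles went from 98.8 and 90.5 to 86.2 and 81.4, lower in both I-BET151 lists. The rank shift was −1.35 ± 0.40 (SE; limma adjusted p = 0.0610), outside the threshold. It passed without I-BET151 replicate 1 (adjusted p = 0.0423) and among peaks with −log10 p of at least 10 (limma adjusted p = 0.0204). The pileups were 56 and 44 reads with DMSO and 51 and 94 with I-BET151, and the centred scaled pileup differed by −0.03 ± 0.21 (SE; limma adjusted p = 0.934). The 2 measures thus differ for this promoter, and the local background ratio was 1.74 and 1.72 with DMSO and 4.85 and 5.93 with I-BET151.

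At CDKN2C, the gene of p18, the promoter region (chr1:50968025-50970157) has its summit 1.9 kb before the canonical start site, 374 bp from the start of transcript CDKN2C-203. Its fold enrichments were 6.93 and 7.37 with DMSO and 8.14 and 10.5 with I-BET151, and its percentiles were 93.5 and 92.1 against 78.7 and 86.7. The rank shift of −0.98 ± 0.38 (SE) did not pass the threshold (limma adjusted p = 0.131). A second start region 9.9 kb upstream, shared with the opposite gene FAF1, had the highest mean fold enrichment of the locus in both groups. Its values were 8.27 and 6.59 with DMSO and 10.9 and 10.6 with I-BET151. Its rank shift was −0.73 ± 0.39 (SE, limma adjusted p = 0.261). Its means did not differ from those of the promoter region beyond their spread. They were 7.43 ± 1.19 against 7.15 ± 0.315 with DMSO and 10.7 ± 0.207 against 9.34 ± 1.70 with I-BET151 (SD, n = 2). The gained region (chr1:50950375-50950926), in FAF1 intron 1, had fold enrichments of 3.64 and 8.34 from 6 and 20 reads. The SD of fold enrichment between the I-BET151 libraries was 3.33 here and at most 1.07 at the other gained members.

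At CDKN2D, the gene of p19, the promoter (chr19:10568611-10569417) had the highest mean fold enrichment of the members with I-BET151, 10.9 ± 0.110 (SD, n = 2), close to the 10.7 ± 0.207 of the CDKN2C region shared with FAF1. Its fold enrichments were 5.18 and 5.27 with DMSO and 10.8 and 11.0 with I-BET151, and its percentiles were higher in both I-BET151 lists. Its rank shift of 0.27 ± 0.39 (SE) did not pass the threshold (limma adjusted p = 0.702). The 2 gained regions lay in AP1M2, a gene for a subunit of the AP-1 clathrin adaptor. The one in AP1M2 exon 9 (chr19:10577085-10577491) had fold enrichments of 4.85 and 3.99 from 9 and 10 reads, and the one in AP1M2 intron 6 (chr19:10581029-10581445) had 6.76 and 8.28 from 12 and 20 reads. The shared region in ATG4D intron 9, 16.2 kb downstream, had the lowest fold enrichment of the shared members with DMSO, with values of 2.80 and 2.91 against 3.88 and 3.79 with I-BET151. It was not past the threshold by rank (−0.26; limma adjusted p = 0.719), but its centred scaled pileup was lower by −1.61 ± 0.25 (SE; limma adjusted p = 0.0223). The ATG4D region had pileups of 17 and 17 reads with DMSO and 7 and 9 with I-BET151, where the weakest called peaks had 5 and 6. By centred scaled pileup, 1225 of all 25627 shared regions were called lower and 184 higher. The remaining shared region lay 134 bp from the start of KRI1 and had a rank shift of −0.54 (limma adjusted p = 0.414).

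**Figure D4:**
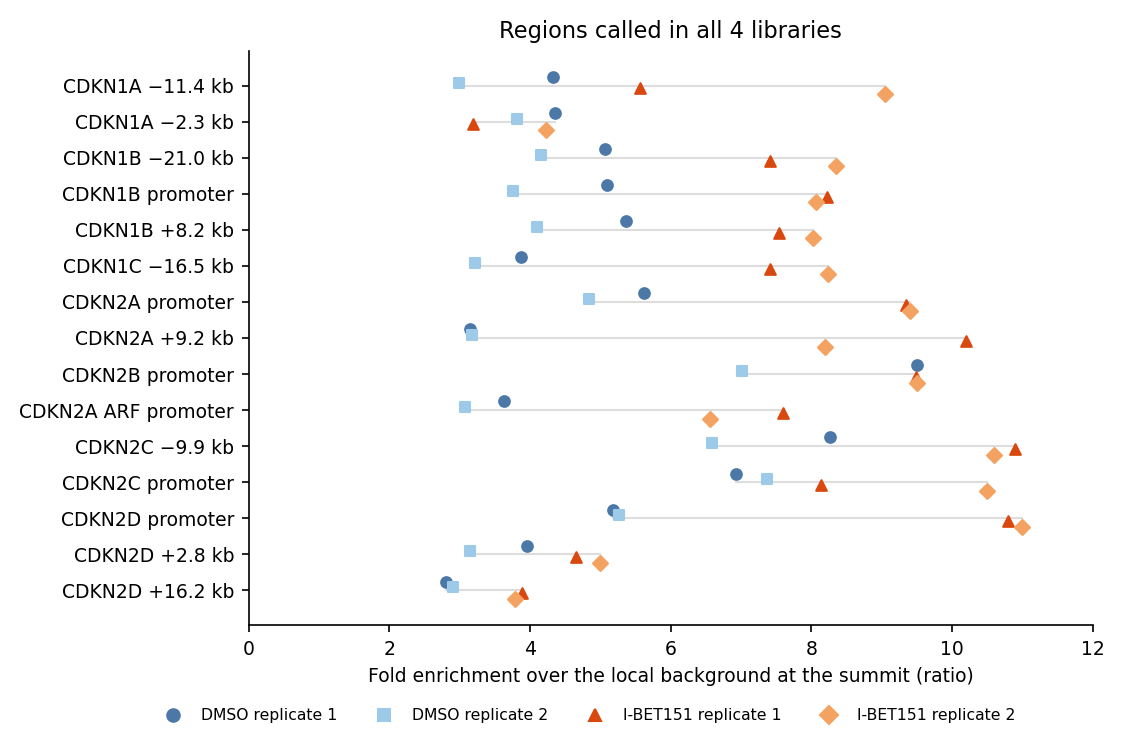
Fold enrichment at the summit (x axis, ratio) of the 15 shared member regions, 1 row per region and 1 symbol per library. Both I-BET151 values lie to the right of both DMSO values in most rows; at the CDKN1A upstream region (DMSO 4.36 and 3.82, I-BET151 3.19 and 4.22) and the CDKN2B promoter they do not.

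Across the 15 shared members the mean log2 fold enrichment was higher with I-BET151 in 14, with a median difference of 0.78; over all 25627 shared regions it was higher in 98.8%, with a median of 0.83. The median difference in percentile was 5.82 for the members and 6.21 for all. Percentiles were higher without overlap at 5 of the 15, against 40.8% of all shared regions, and lower without overlap at 3, against 10.3%. By limma on the normal scores of ranks, 1 of the 15 moved up and 1 moved down, against 3.41% and 1.96% of all shared regions. The rank shift was above 0 in 6 members and below 0 in 9, with a median of −0.21, against −0.03 over all shared regions. The log2 change in scaled pileup within the replicate pairs had medians of 1.55 and 2.19 for the members, next to 1.57 and 2.25 for all shared regions. The median ratio of local to genome-wide background at the shared members was 1.80 and 1.69 with DMSO and 3.58 and 4.36 with I-BET151, above the medians of all shared regions given for CDKN1A in each library. Its part in the rank shifts was not tested.

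**Figure D5:**
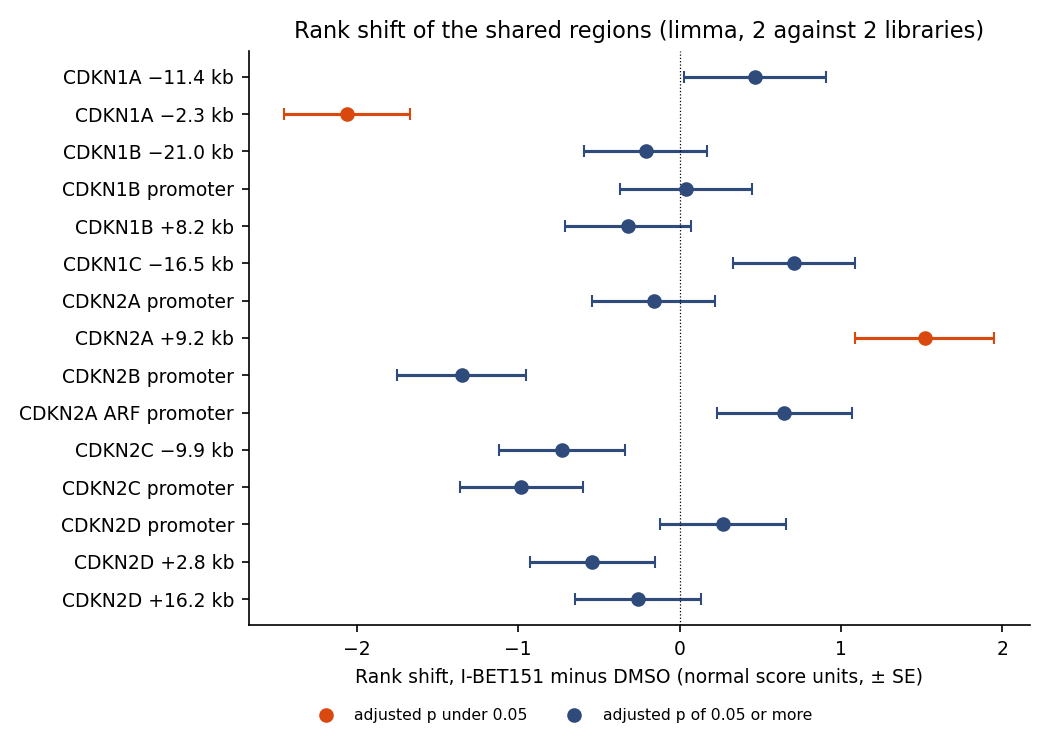
Rank shift of the 15 shared member regions (x axis, I-BET151 minus DMSO in normal score units; bars, SE from limma over 2 against 2 libraries), coloured by adjusted p. The CDKN1A upstream region (−2.06) and the region beyond the 3′ end of CDKN2A (1.52) pass the threshold, and the CDKN2B promoter (−1.35) lies just outside it.

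Base composition and motifs were described from a window of 201 bases around each summit. The median G+C content of the member windows was 61.2% (range 38.3% to 77.1%), against 47.8% over all regions, and it was 65.2% in the shared, 56.2% in the gained and 55.2% in the other members. The box GGGCGG, bound by SP factors, was found in 12 of the 31 member windows and in 10.4% of all windows. Only 1 of these 12 was gained. The CCAAT box was found in 11 members (24.7% of all windows), TATAAA in 2 (9.68%), both gained, and any of the E2F motifs TTTCGCGC, TTTGGCGC and TTCCCGCC in 2 (0.772%). The E-box CACGTG was found in 2 members (3.02%), the FOX motif TGTTTAC in 1 (4.57%) and the GATA motif AGATAA in 1 (14.2%). The AP-1 motif TGANTCA (11.0%) and the CTCF consensus (1.86%) were found in none. The p53 decamer was found in 2 members, both of CDKN1A (11.4 and 2.3 kb upstream), and in 5.91% of all windows. A match describes the sequence and not binding.

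In the RefSeq promoter windows of 300 bases, GGGCGG was found in 7 of the 9 member windows and in 45.0% of all 35114 promoter windows. The CCAAT box was found in 3 (34.6%), an E2F motif in 1 window of CDKN2C (4.24%) and CACGTG in 2 windows of CDKN2C (7.26%). TATAAA (11.5%), TGANTCA (7.71%), TGTTTAC (3.42%), AGATAA (10.3%), the CTCF consensus (0.470%) and the p53 decamer (6.63%) were found in none of the 9. Motif matches were counted on both strands, and TTCCCGCC and GGGCGG can overlap in GC-rich sequence.

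The kinases, cyclins, pocket proteins, E2F factors, phosphatases and regulators that work with the inhibitors were taken as a list of 40 genes. Of their 40 promoter regions, 34 were shared, 3 gained and 0 lost. Among all 14773 protein-coding promoters with a region, 71.9% were shared, 10.3% gained and 0.575% lost. The share of genes that have a promoter region was not compared. By limma 2 of the 34 moved up in rank and 0 moved down, against 3.41% and 1.96% of all shared regions, which are not only promoters. The median rank shift of the 34 was −0.11, against −0.03 over all shared regions. The promoter of E2F1, an activator of S phase genes that is released from RB1 when CDKs are active, had fold enrichments of 3.41 and 3.65 with DMSO and 11.6 and 12.1 with I-BET151, and its rank shift was 1.82 ± 0.39 (SE; limma adjusted p = 0.0206). That of TFDP1, the dimer partner of E2F factors, had 2.92 and 3.26 against 8.06 and 9.17 and a rank shift of 1.51 ± 0.40 (SE; limma adjusted p = 0.0427). By percentile both stood higher in both I-BET151 lists, as did 45.3% of all protein-coding promoters with a region. Alternatives were not examined for these 2 calls. Over all shared regions, 875 moved up in the main setting and 8 with ranks by −log10 p. The gained promoters were those of E2F4 (9.22 and 12.5), E2F2 (7.48 and 6.39) and CCND1, the gene of cyclin D1 (3.19 and 3.23). The CCND1 values lay at the low end of their lists, at percentiles 1.06 and 4.40. Those of E2F4 lay at 84.9 and 93.3 and those of E2F2 at 73.8 and 54.8. None of the kinase promoters (5 genes, 4 shared) passed the threshold of limma or was gained.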

How the data were processed

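Conditions were taken from the sample labels. Per the methods, the authors aligned paired-end reads to hg38 with Bowtie2 (2.2.5), discarded duplicate and mitochondrial reads, and ran MACS2 (2.1.2) with a command that names no control; 1 list was deposited per library. The deposited lists give, for each peak, fold enrichment as a ratio, −log10 p and −log10 q values, and a display score that was not used. They reach down to a −log10 q of 1.30, that is, they are not limited to the −log10 p of 5 of the methods.

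Peaks of the autosomes, X and Y were merged at an overlap of 1 bp with Python 3.11.15 (numpy 2.4.6, scipy 1.17.1, pandas 2.3.3). Because fold enrichment and p-value together fix pileup and background, both were solved for each peak (within 0.01 of −log10 p in at least 99.94% of a list). A promoter was a region within 1 kb of the canonical start site, the one with the highest fold if several, at percentile 0 where not called. Rank shifts were fitted with limma 3.58.1 (R 4.3.3; lmFit, eBayes) on all regions called in all 4 lists, with Benjamini-Hochberg adjustment and a threshold of 0.05. Intervals from counting reads are not part of the SE. Depth assumes the default MACS2 genome size of 2700 Mb and a read extension equal to the shortest peak; with the 200 bp of the methods it would be 42.6 and 20.5 M reads for the replicate 2 libraries, and scaled pileups that are not centred would change with it. The scripts were tested on simulated data.

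Regions named were the promoters, the gained regions, those past the threshold and the one with the highest fold in each locus; the ATG4D region and the other shared regions were added after their values were seen. Members and gene lists were chosen with earlier results of these data known. Alternatives were stricter thresholds, equal peak numbers, 50% overlap, 5 and 50 kb windows, other rank measures, leaving out each library and the replicate number as a block. The labels give only the number as pairing.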

Additional observations from a re-analysis of the deposited data

How the results depend on the processing

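The gained count (7) was 2 with equal numbers of peaks and 2 within 5 kb of the gene bodies, ranged from 7 to 11 when 1 library was left out (11 without I-BET151 replicate 1), and lay between 6 and 10 under the other alternatives. The lost count (0) was 1 with equal numbers of peaks (6.03% of all regions), 1 with an overlap of at least 50% (2.25%) and 2 within 50 kb (2.37%). When 1 library was left out it was 0 to 1, the 1 without DMSO replicate 2, where 20.4% of all regions were lost. The count moved up in rank (1) was 0 with ranks by −log10 p, 0 with centred scaled pileup and 14 with scaled pileup that was not centred. Over all shared regions these settings gave 8, 184 and 24625 up. Among peaks with −log10 p of at least 10 and with equal numbers of peaks the count was 0. The region beyond the 3′ end of CDKN2A was not tested in either, and 840 of 13209 and 120 of 16157 regions moved up there. Within 50 kb the count was 3. When 1 library was left out, the shift of the CDKN2A region was 1.07 to 2.07. The count moved down (1) was 0 with ranks by −log10 p, 2 with centred and 0 with uncentred scaled pileup. Over all shared regions these settings gave 27, 1225 and 14 down. With equal numbers of peaks the count was 0 (47 of 16157 over all), and the CDKN1A upstream region was not tested there. Among peaks with −log10 p of at least 10 the count stayed 1 (594 of 13209 over all). There the region was the CDKN2B promoter, and the CDKN1A upstream region was not tested. When 1 library was left out, the shift of the CDKN1A upstream region was −2.4 to −1.44. Without I-BET151 replicate 1 it was −1.44, and that of the CDKN2B promoter was −1.53. Without centring, the difference turned to 1.08 at the CDKN1A upstream region and to 1.89 at the CDKN2B promoter; this scaling keeps the shift shared by all regions. The median promoter difference (11.5) turned to −13.1 with equal numbers of peaks and to −6.54 among shared regions, and ranged from −2.76 to 15.0 when 1 library was left out, being negative without DMSO replicate 2. For the other changes the cause was not tested. Where 1 library was left out, the lone library of its group was assumed to vary like the other group. With the replicate number as a block, 1 member moved up, 1 moved down, and the median promoter difference was 11.5, so no call changed; over all shared regions the block gave 985 up and 652 down, against 875 and 503 without it. The deviations of libraries with 1 number had a correlation of −0.14, and the crossed pairing, added after seeing the data, gave 1 member up and 2 down, and 1985 and 1567 over all. The values of single regions under the same alternatives were also added after seeing the data. Pileups of 6 to 111 reads at the named regions carry a counting error of their own.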
